A study of Danio rerio with 12 samples.

Results

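Extracellular matrix and integrin genes were examined in adult zebrafish (Danio rerio) retina and brain. They were chosen by gene symbol from the platform annotation: collagens (col followed by a number and a), laminin chains, fibronectin 1, tenascin C, tgfbi, the timp inhibitors, integrin alpha and beta chains, sparc, thrombospondins, fibulins, fibrillins, the lysyl oxidase family and decorin. The choice found 47 genes with 56 probe sets, among 8793 genes with a single symbol and 15502 probe sets on the array. Where a gene had several probe sets, the one with the highest mean signal in the retinas stands for it. By role there were 6 fibrillar collagens, 3 basement membrane collagens, 12 other collagens, 7 laminin chains, 10 adhesive glycoproteins and fibre proteins, 4 enzymes and inhibitors, 4 integrin alpha chains and 1 integrin beta chain.

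The matrix is the protein scaffold outside cells. Fibrillar collagens form the load-bearing fibres of stroma, sclera and scars, with decorin and fibronectin bound to or laid down beside them, while laminins and the collagens of types XV and XVIII belong to basement membranes, such as those under the retinal pigment epithelium and at the inner face of the retina. Integrins are the paired cell surface receptors that hold cells to these proteins. In adult zebrafish, new retinal neurons arise after injury from Müller glia, which span the retina and end at its inner basement membrane.

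Total RNA was measured on 12 Affymetrix arrays, deposited on a scale with a common trimmed mean signal. There was 1 array of brain from unlesioned fish, 1 array of retina labelled as a true control, and 1 array each of control and of lesioned retina at 2, 3, 5, 7 and 14 days post-lesion, from matched animals per the design text. Strain, genotype, age beyond adult, the kind of lesion and the number of fish on each array are details not given in the sources used here. With 1 array for each day and kind, the days serve as the replicates, and counts of retinas are counts of arrays.

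The labelled tissues were checked against marker lists. The summed signal of 7 photoreceptor genes was 123970 to 146776 in the unlesioned retinas and 857 in brain, and 6 of 7 tested brain genes were higher in brain. The arrays fell into 2 sets by the signal of their hybridization controls, here called array blocks: brain, the true control and days 2 and 14 in block 1, and days 3, 5 and 7 in block 2. The sources used here do not record what set the blocks apart. The GAPDH 5'/3' signal ratio is often read as a measure of RNA integrity. It ran from 0.692 to 0.854 on the block 1 arrays and from 0.103 to 0.245 on the others. It was also lower in the lesioned array than in its control in all 5 pairs, at 0.752 against 0.770 on day 2, 0.103 against 0.158 on day 3, 0.157 against 0.200 on day 5, 0.205 against 0.245 on day 7 and 0.807 against 0.854 on day 14. Each matched pair shared a block, so a matched ratio does not cross blocks, but days 3, 5 and 7 cannot be told apart from block 2. All ratios are differences of log2(signal + 50), which understate the change of dim genes.

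Most of the 47 genes gave dim signals in intact retina. Their median mean signal over the 6 unlesioned retinas was 85.5, against 176 over all probe sets, and 29 of the 47 lay under 100. The signals of col11a2, col28a2a, col8a1a and the integrin chain itga2b lay under the lower quartile of the array on all 12 arrays. The members with the highest mean signal were sparc, col18a1a, timp2a, col15a1b and itgb5. Signal depends on the probes as well as the transcript, so brightness gives no order of transcript levels between genes.

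Sparc, a collagen-binding glycoprotein also known as osteonectin, gave 1418 in the true control and 1003, 2402, 2640, 3012 and 2361 in the controls of days 2, 3, 5, 7 and 14. Col18a1a, a type XVIII collagen chain whose cleaved end is endostatin, gave 1221 in the true control and 764, 1833, 2450, 2129 and 1045 in the same controls. The block 2 controls lay above every block 1 unlesioned retina for both genes. Timp2a, an inhibitor of matrix metalloproteinases, ran the other way, with 342 to 609 in the 3 block 2 controls and 1045 to 1518 in the 3 block 1 retinas. The type XV collagen chain col15a1b was steadier, at 496 to 748 across the 6 retinas with no separation of the blocks, and the integrin beta chain itgb5 ranged from 316 to 767. Thrombospondin thbs1b, an adhesive glycoprotein, ran from 72.2 in the day 2 control to 714 in the day 7 control. Markers of other eye tissues also varied among the unlesioned retinas: rpe65a, the visual cycle isomerase of the pigment epithelium, spanned 1572 to 20551, and kera, a corneal proteoglycan, spanned 331 to 5936. Kera also separated by block, at 3352.5 to 5936 in the block 1 retinas and 331 to 1672 in the block 2 controls. Its spread therefore cannot be told apart from the array block. The part of these eye tissues in the spread of the matrix genes was not tested.

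After the lesion, 3 of the 6 fibrillar collagens rose, and no other tested member passed the test. Of the 19 members bright enough to test, 3 rose (15.8%) and 0 fell in limma's paired fit over the 5 days, against 3.56% of the 9301 tested probe sets that rose and 0.538% that fell. All 3 were fibrillar: both chains of type I collagen, col1a1a and col1a2, and the type V chain col5a2a, which sits inside type I fibrils and governs their width. Over the tested members the median log2 change was 0.13, against -0.01 over all tested probe sets, and 9 of the 19 had an unadjusted p under 0.05, against 18.1% of all. The signal filter acts on the mean of both groups, and 4 of the 19, namely col5a2a, lama4, lamb1a and tgfbi, passed it only through their lesioned arrays. The other 28 members were not tested in this fit.

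**Figure D1:**
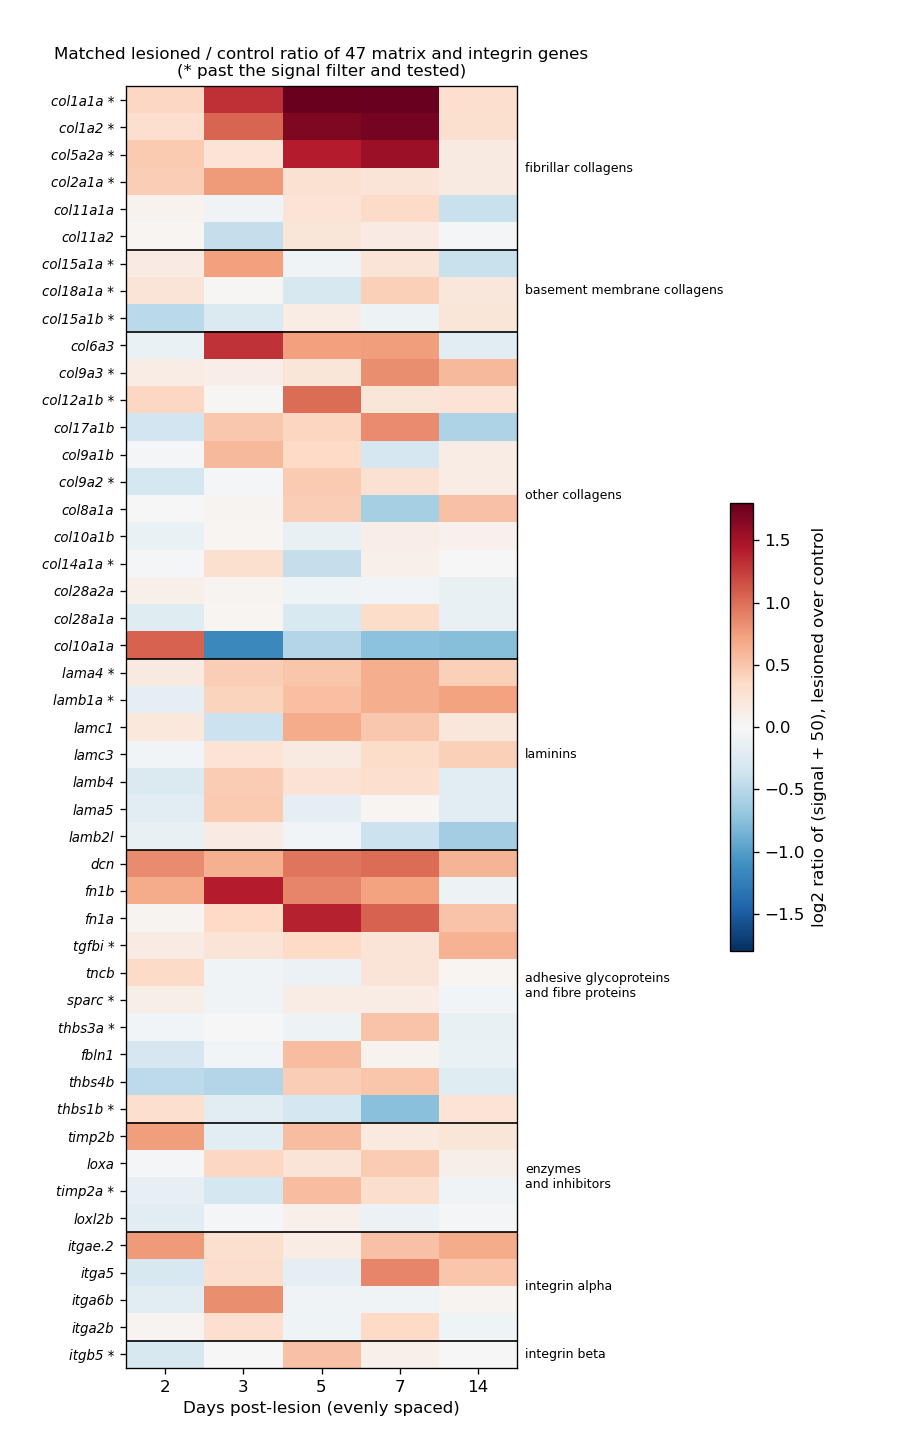
Matched ratio, log2 of (signal + 50) in the lesioned over the control array of the same day, for all 47 genes (rows, grouped by role) at 2, 3, 5, 7 and 14 days post-lesion (columns, evenly spaced). Asterisks mark the 19 tested genes. The ratios of col1a1a, col1a2 and col5a2a on days 5 and 7, at 1.41 to 1.80, are among the strongest colours, beside fn1b on day 3 (1.42) and fn1a on day 5 (1.39).

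The signal of col1a1a in the controls was 82.1 on day 2, 68.7 on day 3, 237 on day 5, 249 on day 7 and 100.5 on day 14. In the lesioned retinas it was 121, 245, 949, 973 and 135 on those days. Each lesioned array lay above its own control, while the lesioned arrays of days 2, 3 and 14 lay below the highest control, so the groups overlapped. The mean log2 change was 1.11 ± 0.20 (SE, n = 5 pairs; limma adjusted p = 0.00584), with matched ratios of 0.37, 1.32, 1.80, 1.77 and 0.30.

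Col1a2 is the partner chain of col1a1a in the type I trimer. Its control signals were 3.8, 147, 308, 185 and 57.0 on days 2, 3, 5, 7 and 14, and its lesioned signals were 16.6, 359.8, 1096, 722 and 80.9. The lesioned arrays of days 3, 5 and 7 lay above all controls, and those of days 2 and 14 lay inside the control range. The change was 1.01 ± 0.20 (SE, n = 5 pairs; limma adjusted p = 0.00988).

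Col5a2a differed in that its controls hardly varied, with 76.7, 81.4, 82.8, 90.2 and 84.9 on the 5 days. The lesioned signals were 126, 105, 303, 359.5 and 100.5, all above every control. Its change was 0.77 ± 0.20 (SE, n = 5 pairs; limma adjusted p = 0.0408). The highest ratios, 1.41 and 1.55, again fell on days 5 and 7.

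The ratios of these 3 genes were higher on the days of block 2. The mean ratio over days 3, 5 and 7 was 1.63 for col1a1a, 1.48 for col1a2 and 1.07 for col5a2a, while over days 2 and 14 it was 0.34, 0.30 and 0.32. With the block 1 pairs alone none of the 3 passed limma's test, with adjusted p of 0.679 for col1a1a, 0.836 for col1a2 and 0.740 for col5a2a. In that fit 0 of 9301 probe sets passed, against 381 with all 5 pairs. Without day 7 none of the 3 passed either (changes of 0.95, 0.83 and 0.57, limma adjusted p = 0.0552, 0.0756 and 0.199 in the same order). Without day 5 only col1a1a of the 3 did, with changes of 0.84 for col1a2 (limma adjusted p = 0.0707) and 0.61 for col5a2a (0.166). Over all probe sets 167 passed without day 7 and 198 without day 5. Without day 2 the change of col5a2a was larger, at 0.84, with an adjusted p of 0.0506. With the GAPDH 5'/3' ratio as a covariate the changes were 0.57 for col1a1a, 0.57 for col1a2 and 0.72 for col5a2a. None of the 3 passed (limma adjusted p = 0.720, 0.740 and 0.647), and 10 of 9301 probe sets did.

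The difference between the day sets was itself fitted, in a comparison chosen after the data were seen. The lesion change of col1a1a was larger on days 3, 5 and 7 than on days 2 and 14 by 1.29 ± 0.24 on the log2 scale (SE, limma, adjusted p = 0.178), and that of col1a2 by 1.18 ± 0.26 (limma, adjusted p = 0.638). None of the 19 members and 0 of 9301 probe sets passed, while 3 of the 19 members and 4.63% of all probe sets had an unadjusted p under 0.05. The third was thbs1b, whose change was lower on days 3, 5 and 7 by -0.70 ± 0.25 (SE, limma, adjusted p = 0.9997).

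**Figure D2:**
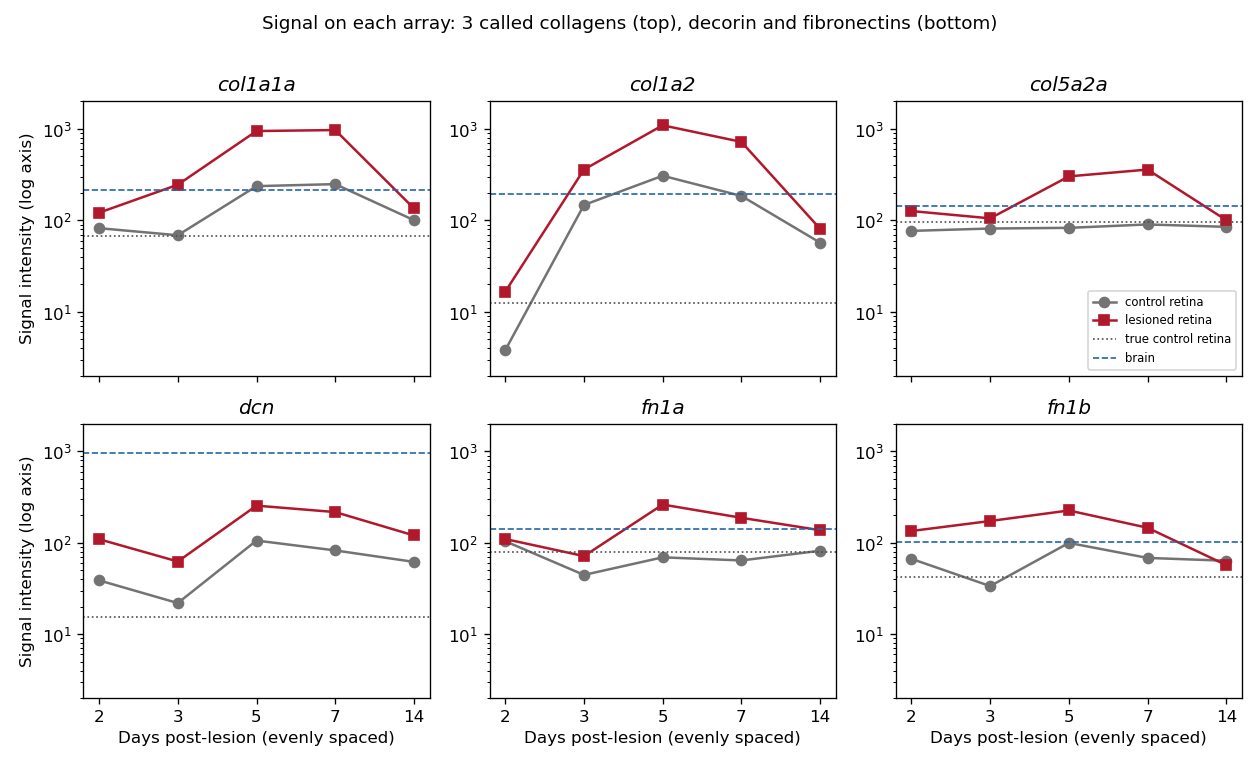
Signal intensity (log axis) on each array against days post-lesion (evenly spaced) for col1a1a, col1a2, col5a2a, dcn, fn1a and fn1b. Grey circles are control retinas and red squares lesioned retinas, 1 array each, with dotted and dashed lines for the true control retina and brain. The lesioned points lie above the control point of the same day in every panel, except fn1b on day 14.

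Second probe sets of the type I chains also had their highest ratios on days 5 and 7. The second col1a1a probe set gave 206, 116, 139, 71.9 and 161 in the controls and 209, 92.9, 392, 234 and 156 in the lesioned retinas. Its ratios were near 0 or below on days 2, 3 and 14 and 1.23 and 1.22 on days 5 and 7, and its mean change of 0.44 ± 0.20 did not pass (SE, n = 5 pairs; limma adjusted p = 0.262). The first probe set was taken for its mean over all retinas, lesioned ones included. Over the 6 unlesioned retinas alone the second was the brighter, at 146 against 134, and with that choice, made after the data were seen, the call of col1a1a is lost and 2 members rose. The second col1a2 probe set, too dim to be tested, had ratios of 1.78 and 1.56 on days 5 and 7 and 0.03 to 0.69 on the other days. The second col5a2a probe set stayed under 30 on all arrays, and its ratios lay between -0.55 and 0.11. On day 3 the col1a1a ratio was 1.32 with the first probe set and -0.21 with the second.

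Among the remaining fibrillar collagens, col2a1a, the type II chain of cartilage and vitreous, was higher in the lesioned retina on each day, with ratios of 0.44, 0.77, 0.27, 0.23 and 0.17. Its control signals were 156, 276, 287, 211 and 278 and its lesioned signals 228, 508, 358, 256 and 318. The groups overlapped, and the mean change of 0.38 ± 0.12 did not pass (SE, n = 5 pairs; limma adjusted p = 0.0850). The type XI chains col11a1a and col11a2, minor partners of type II fibrils, were not tested and had mean ratios of 0.04 and -0.01.

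**Figure D3:**
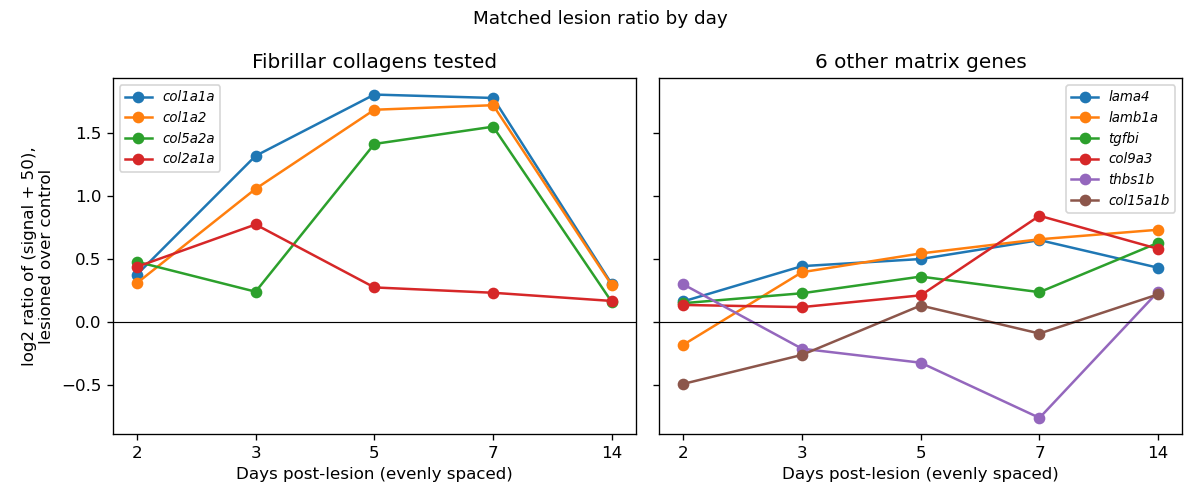
Matched ratio, log2 of (signal + 50) in the lesioned over the control array, against days post-lesion (evenly spaced), for the 4 tested fibrillar collagens (left) and 6 other genes (right). Each point is 1 pair of arrays. The ratios of col1a1a, col1a2 and col5a2a peak on days 5 and 7 and lie at 0.16 to 0.30 on day 14, while that of lamb1a is highest on day 14, at 0.73.

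The basement membrane collagens did not pass the test. Col15a1b had control signals of 711, 748, 496, 636 and 605 and lesioned signals of 492, 616, 548, 594 and 712, and its mean change was -0.10 ± 0.12 (SE, n = 5 pairs; limma adjusted p = 0.718). Its ratio was -0.49 on day 2 and 0.22 on day 14, and the groups overlapped. The changes of col15a1a and col18a1a were 0.13 and 0.12.

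Other collagens included the type IX chains, which decorate type II fibrils, and the types XII and XIV, which bind fibril surfaces. Col9a3 was higher on each day, most on day 7, when the signal was 174 in the control and 351 in the lesioned retina, and its change of 0.38 ± 0.14 did not pass (SE, n = 5 pairs; limma adjusted p = 0.142). Col9a2 had ratios of -0.31 on day 2 and 0.48 on day 5, with a mean change of 0.11. Col12a1b, named after its values were seen, went from 94.1 to 238 on day 5 and had ratios of 0.02 to 0.37 on the other days. Col14a1a changed by -0.01 on average, with ratios from -0.43 to 0.29. The 8 other collagens that were not tested had mean ratios of -0.43 to 0.50. Highest among these was col6a3, a type VI chain of the fine filaments around cells, named after its values were seen, whose ratios were 1.31, 0.74 and 0.75 on days 3, 5 and 7 and below 0 on days 2 and 14.

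Laminins are heterotrimers of alpha, beta and gamma chains. The alpha chain lama4, found in vessel and nerve basement membranes of mammals and named after its values were seen, had control signals of 100.2, 60.3, 143, 115 and 70.5 and lesioned signals of 118, 99.9, 223, 209 and 112. It was higher on each day with overlapping groups, and its change of 0.44 ± 0.12 did not pass (SE, n = 5 pairs; limma adjusted p = 0.0657). A second lama4 probe set of like signal, too dim in the mean to be tested, had ratios of -0.11, -0.17, 0.53, 0.33 and 0.15. The beta chain lamb1a had ratios of -0.18, 0.39, 0.54, 0.66 and 0.73 in the order of the days, a change of 0.43 ± 0.14 (SE, n = 5 pairs; limma adjusted p = 0.115). The 5 untested laminin chains had mean ratios of -0.21 to 0.23.

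Among the adhesive glycoproteins, several genes below the signal filter had high ratios, and they are described as seen after the fact. Decorin (dcn), a small proteoglycan that binds collagen fibrils, gave 38.8, 21.9, 106, 82.5 and 61.8 in the controls and 109, 62.4, 255, 217 and 120.3 in the lesioned retinas. Every lesioned array lay above its control, with ratios from 0.61 to 1.01, though the groups overlapped. Fitted over all 15502 probe sets without the filter, where 1.72% rose and 0.155% fell, the change of dcn was 0.81 ± 0.13 (SE, n = 5 pairs; limma adjusted p = 0.00633), and col5a2a no longer passed (0.0889).

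The fibronectins fn1a and fn1b are adhesive proteins of provisional and stromal matrix. Fn1a went from a control signal of 69.3 to 262 on day 5 and from 64.1 to 188 on day 7, whereas on day 2 the signals were 104 and 110.0. Fn1b had its highest ratio, 1.42, on day 3, from 33.6 to 173, and a ratio of -0.09 on day 14. Their changes without the filter were 0.67 (adjusted p = 0.0903) and 0.72 (adjusted p = 0.0690), which did not pass limma's test. The other probe sets of fn1a were dim, with mean ratios of 0.36 and 0.20, and both had their highest ratio on day 3 (0.86 and 0.72).

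Tgfbi, an adhesive protein induced by TGF-beta, had its highest ratio on day 14, from 92.9 to 171, and a change of 0.32 ± 0.13 (SE, n = 5 pairs; limma adjusted p = 0.184). Thbs1b had lower lesioned signals on days 3, 5 and 7, with 714 in the control and 402 in the lesioned retina on day 7, and higher ones on days 2 and 14, for a change of -0.15 ± 0.15 (SE, n = 5 pairs; limma adjusted p = 0.654). Sparc had ratios of -0.06 to 0.13. Thbs3a had ratios of -0.14 to 0.01 on 4 days and 0.51 on day 7.

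The enzymes and inhibitors were the lysyl oxidases loxa and loxl2b, which cross-link collagen, and the inhibitors timp2a and timp2b. Timp2a had ratios of -0.15, -0.32, 0.55, 0.32 and -0.06, a change of 0.07 ± 0.13 (SE, n = 5 pairs; limma adjusted p = 0.837). The 3 untested genes of this group had mean ratios of -0.06 to 0.30. Of the integrins only the beta chain itgb5, a partner of the alpha v chain, was tested, with a change of 0.07. The 4 alpha chains were dim, at mean unlesioned signals of 15.9 to 31.8, and their mean ratios were 0.11 to 0.48.

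By single day, ratios past 1.5-fold up were counted without a test. Of the 19 tested members, 0 were past it on day 2, 4 on day 3, 4 on day 5, 6 on day 7 and 2 on day 14, against 4.41%, 7.62%, 6.91%, 5.56% and 1.55% of all tested probe sets. The 2 on day 14 were lamb1a and tgfbi. Among the 6 on day 7 were col5a2a, lama4 and lamb1a, and col5a2a was also among the 4 on day 5. These genes passed the signal filter only through their lesioned arrays, so the counts are descriptive. Only thbs1b on day 7 was past 1.5-fold down among these 19, while 2.28%, 6.95%, 2.91%, 2.53% and 0.548% of all tested probe sets were on the 5 days in turn. Ratios were above 0 on all 5 days for 8 of the 19 tested members, against 9.32% of tested probe sets, and for 11 of the 47 genes, against 8.30% of all probe sets. The 8 were col1a1a, col1a2, col5a2a, col2a1a, col9a3, col12a1b, lama4 and tgfbi, and the 3 untested ones were dcn, fn1a and itgae.2. Of the 8, col5a2a, lama4 and tgfbi were tested only through their high lesioned signals, which raises the share among the tested members. No member was lower on all 5 days, against 7.20% of tested probe sets and 5.17% of all. The highest ratio fell on day 7 for 16 of the 47 genes, on days 3 and 5 for 10 each, on day 2 for 6 and on day 14 for 5. The same count over all probe sets was not made, so these numbers have no share to be read against. The spread of all tested ratios also differed by day, with an SD of 0.43 on day 3 and 0.23 on day 14.

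A steady trend of the lesion change with log2 of the day was called for 0 of the 19 members and for 10 of 9301 probe sets, all down (0.108%). With limma's unadjusted p under 0.05 there were 2 of the 19 members, against 3.54% of all. These were col15a1b, with 0.24 ± 0.11 per doubling of the day, and lamb1a, with 0.29 ± 0.14 (SE, limma, adjusted p = 0.9997 for both).

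Genes that act on the matrix were counted from lists, to be read against the 3.56% of tested probe sets that rose and the 0.538% that fell. Of 11 tested matrix proteases and plasminogen genes, 5 rose and 0 fell: the gelatinase mmp9 by 3.45, the cathepsins ctsla by 0.82, ctsk by 0.79 and ctsba by 0.78, and the membrane protease mmp14b by 0.71 on the log2 scale. Mmp9 stood at 13.4 to 65.0 in the controls and 192 to 1712 in the lesioned retinas, with no overlap. The mean control signals of mmp9, ctsk and mmp13a were 31.4, 109 and 83.8, under the filter's 114. These genes entered the test only through their lesioned arrays. The lists were also chosen with earlier results of these data known, so the counts are descriptive. Of 6 tested collagen processing genes 1 rose, crtap, a partner of the prolyl 3-hydroxylase, by 0.48 ± 0.11 (SE, n = 5 pairs; limma adjusted p = 0.0227). Of 11 integrin adhesion genes 1 rose, the actin cross-linker flna, by 1.13. None of 6 proteoglycan genes and none of 10 TGF-beta and CCN pathway genes passed.

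Markers of other cells were measured beside the collagens, with the same shares of 3.56% up and 0.538% down over all probe sets. Of 7 fibroblast and mesenchyme genes 2 were tested and 0 passed, though these 2 had changes above 0 and an unadjusted limma p under 0.05. Postnb, periostin, a matrix protein of activated fibroblasts, was named after its values were seen. Its signal went from 33.1 to 362 on day 5 and from 70.6 to 355 on day 7. Its ratios were -0.19 to 0.62 on the other days (mean change 0.95 ± 0.28, SE, n = 5 pairs, limma adjusted p = 0.0704). The mean control signal of postnb, 52.1, lay under the filter's 114, so it was tested only through its lesioned arrays. The summed signal of the fibroblast list was 301 to 524 in the controls and 421 to 909 in the lesioned retinas. The log2 ratios of its sums were -0.13, 0.49, 1.40, 0.92 and 0.72 on days 2, 3, 5, 7 and 14. In all retinas 1 of its 7 genes lay under the lower quartile. Of 10 tested macrophage and leukocyte genes 6 rose, and their list summed to 9797 to 11998 in the controls and 12585 to 23525 in the lesioned retinas, with no overlap. Of 4 tested endothelial genes 1 rose, plvapb. All 4 had changes above 0 and an unadjusted limma p under 0.05, with a median change of 0.57. The endothelial list summed to 606 to 4987 in the controls and 922 to 5830 in the lesioned retinas. The 6 sclera and cartilage genes were all too dim to test, at 246 to 523 summed in the controls and 289 to 404 in the lesioned retinas. Of 9 tested Müller glia genes 3 rose and 0 fell, and only 5 of the 9 had changes above 0. Of 7 tested photoreceptor genes 0 rose and 1 fell, and 1 of the 7 had a change above 0. Of 3 corneal and surface epithelium genes 1 rose, the keratin krt94, by 0.93. It was the only 1 of these 3 with a change above 0, and their median change was -0.03. None of 4 erythrocyte genes passed, though all 4 had an unadjusted p under 0.05, with 922 to 11978 summed in the controls and 2963 to 20846 in the lesioned retinas. The pigment epithelium list had 1 of 4 up, and muscle and lens had 0 of 5 and 0 of 1. The part of these cells in the collagen ratios was not tested, and in bulk RNA more cells of a type and more RNA per cell cannot be told apart.

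Brain was compared with the 6 unlesioned retinas, with the array block as a term because brain lay in block 1. With that term each fitted difference was brain minus the mean of the block 1 retinas. The other retinas added only to the estimate of the spread. Of 18 members tested, 4 were higher in brain (22.2%) and 3 lower (16.7%) by limma's test, against 14.1% and 10.3% of the 9301 tested probe sets. Higher were dcn, timp2a, timp2b and col1a2. Lower were col15a1b, col18a1a and col9a2. The single brain array was assumed to vary like the retinas, and 8 of the 18 passed the filter only through brain's high signal, among them dcn, col1a2 and timp2b. The other 29 members were not tested in this fit.

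Decorin had the largest difference among the tested members, with 968 in brain and 15.6, 38.8, 21.9, 106, 82.5 and 61.8 in the true control and the controls of days 2, 3, 5, 7 and 14. Brain lay far above all 6 retinas. Its fitted difference from the mean of the block 1 retinas was 3.55 ± 0.43 on the log2 scale (SE, 1 brain array), and 3.36 without the block term. Timp2a gave 3830 in brain and 342 to 1518 in the retinas, also with no overlap (1.60 ± 0.32, SE; limma adjusted p = 0.00572). Its relative timp2b gave 247 against 69.0 to 133 (1.06 ± 0.28, SE; limma adjusted p = 0.0247). Col1a2 differed in that brain, at 194, lay within the retinas' range of 3.8 to 308. As for all these genes, its difference of 1.78 ± 0.42 (SE) was from the block 1 retinas, whose mean signal was 24.4. Without the block term it was 0.86 and was not called.

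Col15a1b went the other way, with 38.8 in brain and 496 to 748 in the retinas, a fold of 7.85 on the log2(signal + 50) scale (-2.97 ± 0.25, SE; limma adjusted p = 3.2e-05). Col18a1a gave 451 in brain and 764 to 2450 in the retinas (-1.06 ± 0.29, SE; limma adjusted p = 0.0258). The type IX chain col9a2 gave 150.2 against 279 to 365 (-0.83 ± 0.22, SE; limma adjusted p = 0.0233). Brain lay below all 6 retinas for each of these genes. The third multiplexin chain, col15a1a, did not differ in the test, with 230.1 in brain and 112 to 255 in the retinas (0.01 ± 0.27, SE; limma adjusted p = 0.979).

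Without the block term only dcn and col15a1b passed. The differences of timp2a (2.27, adjusted p = 0.0803), timp2b (1.02, 0.0884), col18a1a (-1.59, 0.130) and col9a2 (-0.87, 0.0612) were then as large or nearly so, with larger standard errors. Leaving out the true control took col18a1a to an adjusted p of 0.0605 and col9a2 to 0.0593, and leaving out the day 2 control took timp2b to 0.0647 and col9a2 to 0.0670. Without the day 14 control timp2b was at 0.0571 and col18a1a at 0.0572. The calls of dcn and col15a1b held under all 16 alternatives run, among which the other probe set choices left their probe sets the same.

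**Figure D4:**
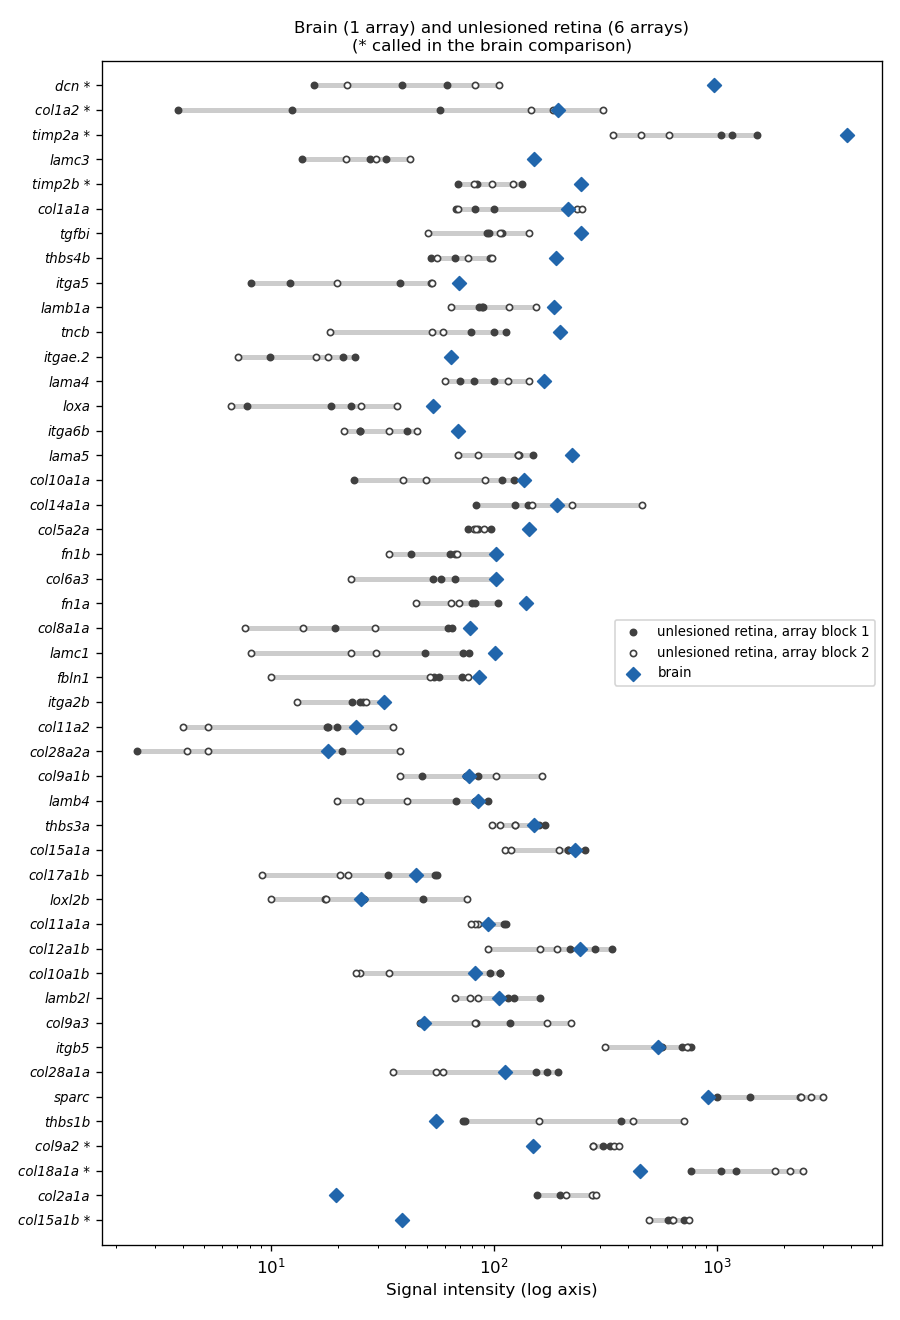
Signal intensity (log axis) of all 47 genes in brain (blue diamonds, 1 array) and in the 6 unlesioned retinas (circles, filled for array block 1 and open for block 2, grey bars spanning their range). Genes are ordered by the difference between brain and the block 1 retinas, and asterisks mark the 7 called genes. Brain lies above the retinas' range for 22 genes and below it for 6.

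Over all 47 genes, brain lay above the range of the retinas for 22, below it for 6 and inside it for 19, while 33.1% of all probe sets lay above and 14.9% below. Among the 18 tested members it lay above for 6 and below for 5, against 32.7% and 20.8% of the tested probe sets. Brain was above the range for 5 of 7 laminin chains, 7 of 10 adhesive glycoproteins and 4 of 4 integrin alpha chains. It was above for 1 of 6 fibrillar and 0 of 3 basement membrane collagens. In the test, 0 of 2 laminin chains and only dcn of 5 adhesive genes were called higher. Some margins were small, such as fbln1 at 85.6 in brain against at most 76.5, and fn1b at 102.6 against at most 99.7. The range counts do not take the array block into account. The 4 integrin alpha chains gave 32.1 to 69.9 in brain, under that array's lower quartile of 80.0. That quartile was itself higher than on the unlesioned retinas (34.6 to 77.4). Among these chains itgae.2 gave 64.0 in brain and 7.1 to 23.8 in the retinas, so its difference lies among dim signals. Without the filter, where 8.94% of all probe sets were higher and 5.99% lower, 4 more members passed, named after their values were seen: col2a1a, at 19.6 in brain and 156 to 287 in the retinas (-1.88, adjusted p = 0.00279), the laminin chain lamc3 (1.44, adjusted p = 0.00263), the thrombospondin thbs4b (0.99, adjusted p = 0.0445) and the integrin chain itgae.2 (0.75, adjusted p = 0.0324), all by limma.

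Markers of other cells also moved with brain, where 14.1% of all tested probe sets were higher and 10.3% lower. Of 8 tested muscle genes 7 were higher there. The muscle list summed to 8225 in brain and 857 to 1629 in the unlesioned retinas. Its muscle creatine kinase ckma, named after its values were seen, gave 1473 in brain against 61.1 to 192. Of the 14 muscle genes 8 were tested in this fit and 5 in the lesion fit, whose filter uses retinas alone. Genes could pass the brain filter through brain's high signal, so the muscle count is descriptive. Of the 7 fibroblast list genes 2 were tested, foxc1a and thy1, and both read higher in brain (median log2 difference 1.33). Foxc1a gave 337 in brain and 5.8 to 120 in the unlesioned retinas, and it passed the filter of 140 only through brain. The fibroblast list summed to 1155 in brain against 301 to 524. Of 4 tested pigment epithelium genes 2 were lower, with rpe65a at 235 in brain. Other lists moved as well. Of 7 tested macrophage and leukocyte genes 4 were higher and 1 lower, and of 10 Müller glia genes 5 were higher and 3 lower. Of 5 corneal and surface epithelium genes 2 were higher, of 3 endothelial genes 1, and of 4 erythrocyte genes 0. The part of all these cells in the brain differences of the matrix genes was not tested.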

How the data were processed

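Each probe set has 1 deposited intensity per array, linear and from the program GCOS per the submitters' processing notes (version not given in the sources used here). Without the lowest and highest 2% of probe sets, every array had the same mean (500.1). Of 15617 probe sets, 115 manufacturer controls were left out. The platform annotation gave 1 symbol for 10795 of the rest, several for 135 and none listed for 4572, and the identifiers of all 47 genes were found in the GRCz12tu gene table with 0 symbols changed.

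Intensities were analysed as log2(signal + 50), with the dimmest 40% of probe sets, by the mean of group means, left out. Tests were two-sided with limma 3.58.1 (lmFit, eBayes, intensity trend) under R 4.3.3, adjusted by Benjamini-Hochberg over 9301 probe sets at a threshold of 0.05. The lesion and trend fits had the day as a block. The brain fit had the array block, from 18 hybridization control probe sets, as a term. The scripts were tested on simulated data. Plots used Python 3.11.15 with pandas 2.3.3 and matplotlib 3.10.9.

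The pairing by day comes from the design text and titles. Deviations of same-day arrays from the group means correlated at 0.758 to 0.900, in each case above any other day. Nothing says which arrays came from separate animals, so p-values reflect the spread among these arrays alone, in part perhaps technical, and the number of arrays limits the precision.

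Members and lists were chosen with earlier results of these data known. Genes named with values are the called members and the 3 highest and 3 lowest ratios among tested members on each day. The 5 brightest in unlesioned retina and second probe sets of called members are also named. Other members were named after their values were seen, as the text says. Cell markers were planned as counts and summed signals only, and those named singly were named after their values were seen. Pathway list genes are given as examples. Alternatives were other normalization, pseudocounts (16 and 100), filters, moderation, probe set choice, blocks, a GAPDH covariate and single days or arrays left out.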

Additional observations from a re-analysis of the deposited data

Results flagged for a closer look

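Among the members named by rule, 57 sets of 5 values were examined (control signals, lesioned signals and matched ratios of 19 genes), and 3 held a value far from the other 4; chance alone gives about 1 in 20. The type XIV collagen col14a1a gave 571.8 in the lesioned retina of day 3, against 126 to 163 in the other lesioned retinas. The control of that day was also the highest of its group, at 459.8. Sparc gave 1002.6 in the control of day 2, against 2361 to 3012 in the other controls, and the lesioned retina of that day was likewise low, at 1077. Thbs3a had a ratio of 0.51 on day 7, from 107 in the control to 173 in the lesioned retina, against -0.14 to 0.01 on the other days.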

How the results depend on the processing

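The count of members that rose with the lesion was 3, and 2 to 4 under quantile normalization, other pseudocounts, filters or moderation. The genes called were not always the same. Col5a2a was lost under quantile normalization (limma adjusted p = 0.0612) and was too dim to be tested with the 60th percentile filter. Without the filter dcn was called and col5a2a was not. Without the intensity trend lama4 was also called (limma adjusted p = 0.0366). The planned probe set alternative picked the same probe sets, and choosing them on unlesioned retinas, added later, gave 2 without col1a1a (0.44, adjusted p = 0.262). The count was 0 without the replicate block (the pairing by day), where 0 of 9301 probe sets passed and 351 reached an unadjusted p under 0.05. It was 0 with the block 1 pairs only, where 0 of 9301 probe sets passed, and 3 with the block 2 pairs only, where 432 did. With the GAPDH 5'/3' ratio as a covariate it was 0, where 10 of 9301 passed, against 381 in the main fit. Leaving out 1 day at a time gave 0 to 3, with 0 without day 7 and 1 without day 5, where 167 and 198 of all probe sets passed. Without day 2 the 3 called were col1a1a, col1a2 and lamb1a, where 264 of all probe sets passed. The block 1 fit has 2 pairs and the cause of the other losses was not tested. The trend count was 0 under all alternatives run. The brain count was 7, with 11 without the filter (more genes tested), 4 with a 60th percentile filter (fewer genes tested), 2 without the array block term and 10 with block 1 arrays only; leaving out 1 unlesioned retina at a time gave 5 to 10. Of the 5 lesion and 8 brain changes with an adjusted p under 0.1, none reversed its sign under an alternative run; other named changes were not followed across alternatives. The mean changes of col1a1a ranged from 0.34 to 1.63, of col1a2 from 0.30 to 1.48 and of col5a2a from 0.32 to 1.07 across alternatives. Signals near the lower quartile of an array, 34.6 to 80.0, limit what can be said of the dim members, since the added 50 flattens their ratios.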
